A study of Mus musculus with 18 samples.

Results

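The cytosolic ribosomal protein genes were followed across round spermatids of WT, KO and KI mice. Members were taken from the count table by symbol: every gene named Rpl or Rps with a number, together with Rplp0, Rplp1, Rplp2 and Rpsa, and leaving out pseudogenes whose symbol ends in -ps and the Rps6k kinases. The rule found 93 of the 54232 genes of the table. Of these, 77 were core members, the genes of the standard ribosomal proteins, with 31 of the small (40S) and 46 of the large (60S) subunit. Rpl10l and Rpl39l, the testis paralogs, were set apart, and the other 14 were relatives, which are copies or similarly named genes, among them Rps4l, Rpl36al and Rps19bp1. The gene models used for sequences class 7 of the relatives as pseudogenes.

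The cytosolic ribosome translates messenger RNA, with the small subunit reading the codons and the large subunit joining the amino acids. The genes of its proteins are active in nearly every cell, and their mRNAs as a rule begin with a run of pyrimidines, the terminal oligopyrimidine (TOP) motif, through which their translation is held back or released together. In male germ cells the X chromosome is silenced in meiosis and stays largely repressed in spermatids, and copies of some X-linked ribosomal protein genes on other chromosomes are known to be expressed there.

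Round spermatids (RS) are haploid germ cells that have finished meiosis and have not yet elongated. They were isolated by sedimentation through a gradient of albumin from testes of mice aged 75 to 85 days, after collagenase had been used to remove Leydig cells, and total RNA was made into libraries without polyA selection, 6 from each genotype. KO mice lack GRTH, the testicular RNA helicase encoded by Ddx25. KI mice carry a human GRTH gene with a missense mutation and lack the phosphorylated form of the protein. The controls are WT, and the labels name no treatment.

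Libraries held 18766971 to 26776555 counted fragments. All levels are normalized CPM, which are counts relative to the library total after scaling with the trimmed mean of M values (TMM), and levels of different genes are compared only per kb of exon. Ddx25 lay between 537 and 606 CPM in WT and between 47.7 and 90.7 CPM in KO. In 5 KI libraries it lay between 0.0456 and 0.518 CPM, whereas the library labelled KI 4 had 56.8 CPM, inside the KO range. By a median index of the differences between counts over counting noise (1 for counting noise alone), KI 4 was also closer to KO 2 (1.59) than any other pair of libraries was to each other. The other 6 close pairs were WT 1 and 2, WT 3 and 4, WT 5 and 6, KO 4 and 5, KI 1 and 2, and KI 3 and 5, with indices between 2.05 and 3.24, and the next pair was at 4.73. The sources do not say which libraries came from the same animals, so p-values measure the spread between libraries, which may in part be technical. All 10 round spermatid markers were above the floor of 3 counts in every library, and their summed level was 927 to 1514 CPM in WT libraries, 590 to 1383 CPM in KO libraries and 636 to 907 CPM in those of KI.

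The sequences of 3 X-linked genes and their autosomal relatives are shown because they set which reads can be told apart. Each line holds 30 coding bases, 5′ to 3′, counted from the A of the start codon, with the bases that differ within a pair in capitals. The first pair covers bases 118 to 147, the next 115 to 144 and the last 151 to 180, taken from GENCODE M21 transcripts on GRCm38.
Rpl10: aaAgcAaaAgtTgatgaAttCccactTtgT
Rpl10l: aaGgcGaaGgtGgatgaGttTccactCtgC
Rpl39: tcTaagAgAagacaCtggagGAgaacGaaG
Rpl39l: tcCaagCgGagacaTtggagACgaacCaaA
Rpl36a: cagacTaagccTatTttCcgCaaAaaggcT
Rpl36al: cagacAaagccAatCttTcgAaaGaaggcC

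Most of these differences leave the protein as it is. Rpl10l (chr12:66283379-66284401, minus strand) and Rpl10 (chrX:74270812-74273135, plus strand) shared 211 of 214 residues but 84.8% of coding bases. Rpl39l (chr16:10170226-10174911, plus strand) and Rpl39 (chrX:37082520-37085402, minus strand) shared 48 of 51 residues and 85.3% of coding bases. Rpl36al (chr12:69182731-69184083, minus strand) and Rpl36a (chrX:134585654-134588062, plus strand) encoded the same 106 residues with 87.9% of coding bases in common. The longest reading frame of Rps4l (chr6:148354656-148355598, plus strand), annotated as a transcribed processed pseudogene, matched Rps4x (chrX:102184941-102189394, minus strand) at 245 of 263 positions, or 93.2%.

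In WT round spermatids the autosomal testis paralogs stood in the upper part of the members per kb of exon, and their X-linked parents near the bottom. Rpl10l, whose product can take the place of the large-subunit protein Rpl10 in spermatogenic cells, had the highest level of all 93 members per kb of exon, 299.8 ± 95.2 CPM per kb (SD, n = 6), but its rank depends on the length used. It was 5th by the longest or the principal transcript, where Rpl26 was first, and 28th of the 92 members with a unique window when divided by unique windows. Rpl36 (280.2 ± 41.4) and the stalk base gene Rplp0 (265.1 ± 22.3) came next per kb of exon, and their spreads overlap that of Rpl10l. Rps4l (126.2 ± 43.6) was 9th and Rpl39l (108.0 ± 35.0) was 14th per kb of exon. By the principal transcript they were 25th and 33rd, and per unique window 48th and 59th of 92. The X-linked parents Rpl10, Rpl36a, Rps4x and Rpl39 ranked from 73rd to 90th under every length. The median of the 77 core members was 39.3 CPM per kb, against 2.34 for all genes tested. The 73 autosomal core members had a median of 45.3, and the 4 on the X chromosome, Rpl10, Rpl36a, Rps4x and Rpl39, lay between 0.243 and 1.89. The lowest core members were Rpl39 (0.243 ± 0.136), Rpl24 (0.283 ± 0.160) and Rps4x (0.485 ± 0.148), which overlapped one another. The lowest of all members were the relatives Rpl3l, the muscle counterpart of Rpl3, at 0.0645, and Rps3a3 and Rps3a2, annotated pseudogenes, at 0.0672 and 0.168. Rpl3l, Rps3a2, Rps3a3, Rps12l1 and the core member Rpl24 were too low to be tested, which left 88 members, 76 of them core. The plot of WT levels by rank shows the 2 testis paralogs among the high autosomal members and the 4 X-linked genes at the low end.

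**Figure D1:**
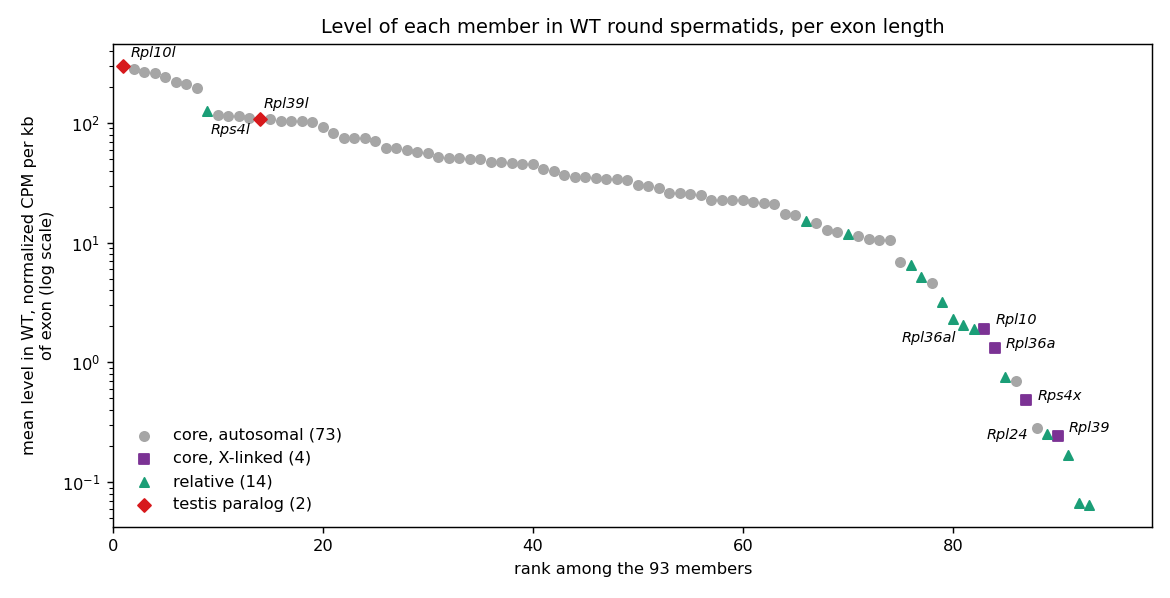
Mean level of each of the 93 members in WT (6 libraries), in normalized CPM per kb of exon on a log axis, against its rank. Rpl10l is at rank 1 and Rpl39l at rank 14, while the 4 X-linked core genes, drawn as squares, all lie under 2 CPM per kb.

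These levels count only fragments that the aligner placed at a single position. Many core members have near copies elsewhere. The median share of 50-base windows of a core transcript found in no other annotated gene was 48.3%, and 18 of the 77 had under 20% of such windows, with Rps27 lowest at 1.35%. Only 14.6% of the windows of Rpl10, 14.5% of Rpl36a and 27.8% of Rps4x were unique, against 83.5% of Rpl39, 92.4% of Rpl10l, 100% of Rpl39l, 85.1% of Rps4l and 75.1% of Rpl36al. Across the 77 core genes the share of unique windows and the WT level had a Spearman rho of 0.0948, a description over genes that share libraries. The level of a gene can therefore be understated by its copies, while a comparison of the same gene between genotypes uses the same windows in every library.

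The high levels of Rpl10l, Rpl39l and Rps4l beside their X-linked partners were seen in all genotypes. Per kb of exon, the mean level of Rpl10l was 158.8 times that of Rpl10 in WT, 81.1 times in KO and 93.6 times in KI. Divided by unique windows in place of exon length, the ratio in WT was 10.4. In no library was it under 3.97 on that scale or under 60.8 per kb of exon. Rpl39l was 445 times Rpl39 in WT (297.8 to 1369 over libraries), where Rpl39 had 3 to 14 counts, 273 times in KO and 295 times in KI, and the WT ratio per unique window was 160.2. Rps4l was 260.2 times Rps4x in WT, 158.3 times in KO and 143 times in KI, and 50.8 times per unique window in WT. Rpl36al stood apart from these. Its level was close to that of Rpl36a, 1.53 times it in WT and 0.686 times in KO per kb of exon, and 0.0856 times per unique window in WT, so the order of this pair depends on the length used. The differences of these ratios between genotypes were not tested.

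**Figure D2:**
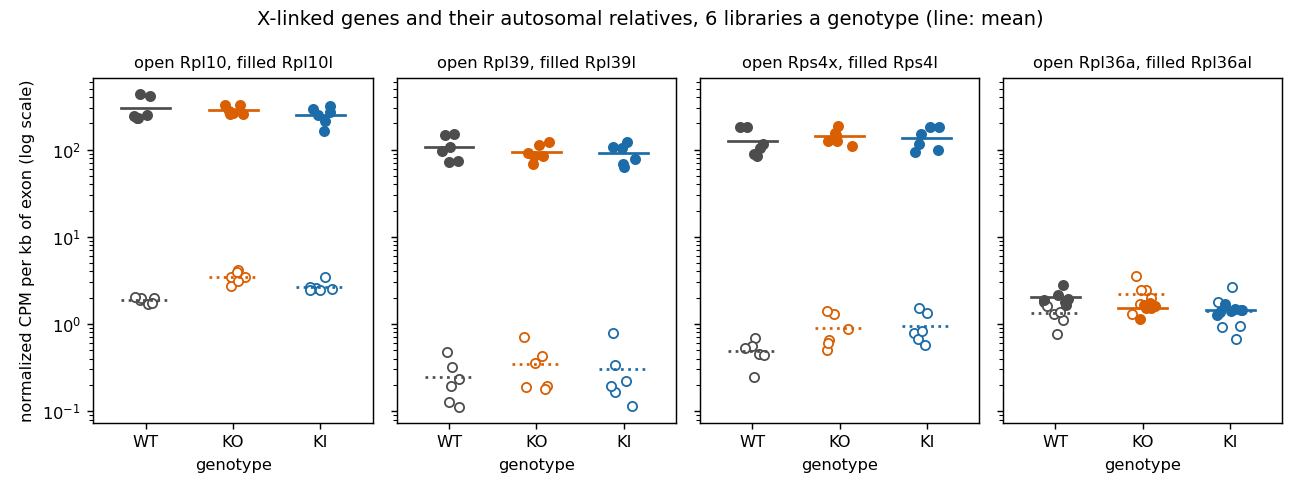
Level of 4 X-linked genes (open circles, dotted line for the mean) and their autosomal relatives (filled circles, solid line) in each of 6 libraries per genotype, in normalized CPM per kb of exon on a log axis. Rpl10l, Rpl39l and Rps4l lie far above their X-linked partners in every library, and Rpl36a and Rpl36al overlap.

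As a group the core genes were slightly lower in most KO libraries than in WT and split in KI. WT libraries had summed levels of 6782 to 8332 CPM (median 7331). The sums were 5343 to 6940 CPM over KO libraries (median 6786) and 3962 to 7662 CPM over KI libraries (median 6069). KO 3 (5343), KO 4 (6535) and KO 5 (6755) were under every WT library. Deviations from WT means were taken in log2 CPM after a prior count of 2, scaled to library size, was added. The median deviation of the 76 tested core genes was between -0.16 and 0.18 in the WT libraries. It was -0.82 in KI 3, -0.67 in KI 5 and -0.43 in KI 6, but 0.06, 0.11 and 0.01 in KI 1, KI 2 and KI 4. Of the KO libraries only KO 3, at -0.33, fell outside the WT range. In KI 3, 70 of the 76 genes were under their WT mean, in KI 5 74 and in KI 6 72, against 27 in KI 1. Among KO libraries the number ran from 34 in KO 2 to 62 in KO 3, and among WT libraries from 13 in WT 3 to 59 in WT 6. The median coefficient of variation of a core gene was 12.8% in WT and 12.6% in KO, but 27.7% in KI. Those 3 KI libraries had low summed levels of 8 Leydig cell markers, 15.96 to 21.3 CPM, against 53.7 to 76.7 in KI 1, KI 2 and KI 4, 35.1 to 61.5 in KO and 11.9 to 23.7 in WT. Mitochondrial rRNA took 15.3%, 15.5% and 11.4% of the counts in KI 3, KI 5 and KI 6, and 8.96% to 12.4% in WT. It took 8.78% in KI 1, 7.73% in KI 2 and 17.5% in KI 4. In KO 3 it took 21.3%, and in KO 2, whose core median deviation was 0.04, it took 17.4%. Round spermatid markers summed to 636 CPM in KI 3, 724 in KI 5 and 864 in KI 6, to 872 to 907 in the other KI libraries and to 590 in KO 3, the lowest of all. Elongating spermatid markers were lowest in KO 3 (1837 CPM), KI 3 (2451) and KI 5 (3068). KI 6, at 3593 CPM, stood above KI 1 (3453) and KI 2 (3399). Of the 10 round spermatid markers 5 were called lower in KI (median -0.48) and 2 in KO. The part of the cell mixture or of RNA quality in these library differences was not tested. In RNA from a cell pool, fewer cells of a type and less RNA per cell cannot be told apart.

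**Figure D3:**
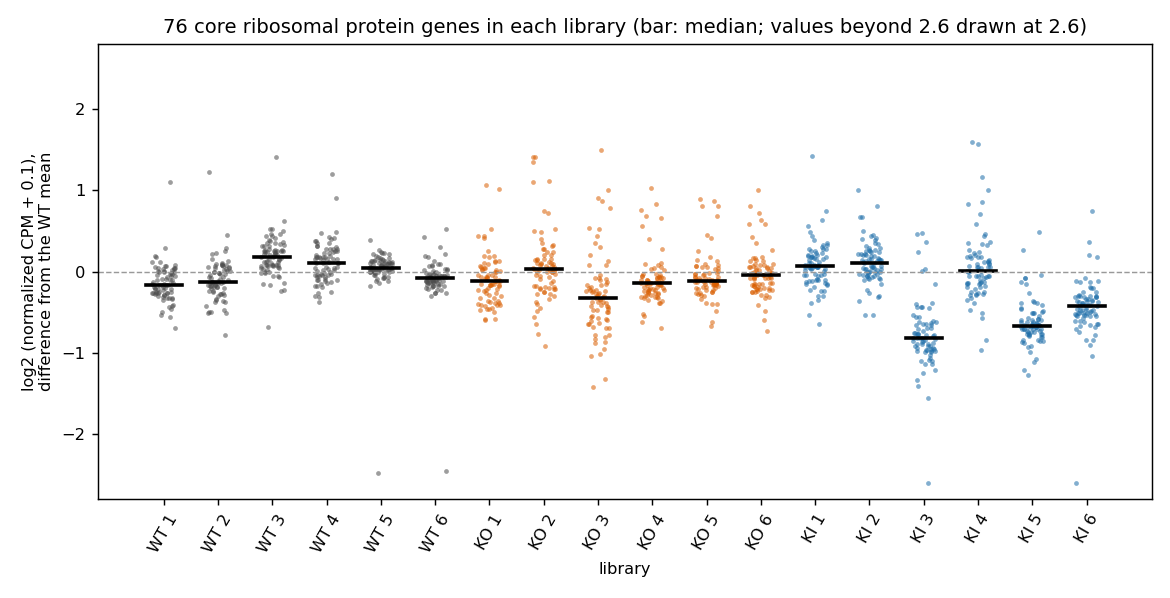
Log2 difference of each of 76 core ribosomal protein genes from its WT mean in each library, with a bar at the median. The bars of KI 3, KI 5 and KI 6 lie at -0.82, -0.67 and -0.43, while those of KI 1, KI 2 and KI 4 lie near 0. The lone low points of WT 5, WT 6, KI 3 and KI 6 are Rpl29, and values beyond the axis limit are drawn at it.

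The comparison of KO with WT shows which members differ in RS preparations of mice that lack GRTH. Few changed: 6 of the 88 tested members were higher and 8 lower in KO at an adjusted p under 0.1 for a change of any amount (edgeR quasi-likelihood test, Benjamini-Hochberg over all genes). Among the 76 core members 5 were higher (6.58%) and 7 lower (9.21%), where 16.4% of all 21058 genes tested were higher and 13.5% lower. Both shares of core members are under those of all genes. The median log2 fold change of the core genes was -0.13, against 0.03 over all genes. Without WT 3 or WT 4 the members called lower numbered 5, and without KO 4 there were 4. Over all genes 2604 of 21333 were lower without WT 3, 2550 of 21300 without WT 4 and 2570 of 21293 without KO 4. Scaled by total counts without TMM factors the core and all-gene medians were -0.01 and 0.15. The gap between them, 0.15 on both scales, is nearly fixed under a change of scale, so the scales cannot test it. The calls among core members were then 6 higher and 4 lower, where 5209 of the 21058 genes tested were higher and 2152 lower. The core median minus that of all genes was -0.25 without WT 1 and 2 and -0.094 without WT 3 and 4. No member passed the test for a change beyond 1 log2 unit, in edgeR or in DESeq2, and none had an unadjusted p under 0.05 for it, while 1.73% of all genes passed. For 78 of the 88 members the 95% interval of the log2 fold change lay within 1 unit of 0.

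The falls in KO fell on members of both subunits. Rpl41, the smallest protein of the large subunit, lay between 214 and 277 CPM in WT (median 252) and between 92.6 and 189 in KO (median 151). The groups did not overlap, and the log2 fold change was -0.78 ± 0.17 (SE; adjusted p = 0.001577, edgeR). Rps20, in the head of the small subunit, had 175 to 208 CPM in WT (median 193) and 77.5 to 128 in KO (median 126.0), again without overlap, with a log2 fold change of -0.73 ± 0.15. Rplp1, of the acidic stalk that recruits elongation factors, had 93.2 to 127 CPM in WT (median 111) and 61.2 to 77.8 in KO (median 77.0), with a log2 fold change of -0.56 ± 0.14. Rps12 had 63.4 to 78.0 CPM in WT (median 72.7) and 41.1 to 57.1 in KO (median 54.5), with a log2 fold change of -0.45 ± 0.14. KO 3 was the lowest KO library for each of these 4 genes, and each remained called without it and in all 25 alternative settings run. Rps15a (-0.42 ± 0.16) and Rps13 (-0.37 ± 0.15) also fell, and so did the relative Rpl36al (-0.41 ± 0.16), but these calls were lost in 6, 12 and 10 of the 25 settings. Single libraries sufficed: without KO 4, for example, none of these 3 was called.

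The rises in KO included 3 of the 4 X-linked core genes. Rpl10 had 3.50 to 4.16 CPM in WT (median 3.96), against 5.61 to 8.46 in KO (median 7.16) and, in KI, 5.01 to 7.06 (median 5.24). Neither mutant overlapped WT, and the log2 fold change in KO was 0.88 ± 0.13 (adjusted p = 3.857e-05, edgeR). Rps4x, the X-linked gene of a small-subunit protein, had 0.401 to 1.11 CPM in WT (median 0.801) and 0.817 to 2.32 in KO (median 1.26), and the groups overlapped, with a log2 fold change of 0.89 ± 0.31. Rpl36a had 1.28 to 2.97 CPM in WT (median 2.21) and 2.12 to 5.80 in KO (median 3.64), also overlapping, with 0.75 ± 0.29. Rpl39 had 0.159 to 0.678 CPM in WT (median 0.306) and 0.259 to 1.003 in KO (median 0.397), and its log2 fold change of 0.49 ± 0.48 did not pass the test. Over all 710 X-linked genes tested, 29.7% were higher in KO and 14.6% lower, with a median of 0.20. Without KO 2 the values of Rps4x and Rpl36a were 0.76 (adjusted p = 0.1069, edgeR) and 0.58 (adjusted p = 0.1858), neither of them called. The call of Rps4x was also lost without WT 2 or KO 3, where it was 0.71, and that of Rpl36a without WT 1, WT 2, WT 5, KO 3 or KO 5. KO 2 and KI 4 had the highest summed levels of 10 spermatogonium markers, 109 and 114 CPM, against 58.9 to 72.9 in WT. All KO libraries but KO 1 (65.9 CPM) were above that WT range. KO 2 and KI 4 were also the highest of their genotypes for Rpl10, Rpl36a and Rpl39. For Rps4x KI 4 was the highest of KI, but KO 3 (2.32 CPM) stood above KO 2 (2.09). Leydig cell markers, 7 of 8 of which rose in KO, were at 35.1 to 61.5 CPM in KO. The part of either cell type in the X-linked rises was not tested.

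The other 2 core genes that rose were autosomal and of the large subunit. Rpl14 had 13.2 to 24.8 CPM in WT (median 18.98) and 24.9 to 39.5 in KO (median 30.8), just without overlap, with a log2 fold change of 0.77 ± 0.20. Rpl4, part of the wall of the exit tunnel, had 62.8 to 85.4 CPM in WT (median 73.8) and 99.9 to 154 in KO (median 121), without overlap, with 0.74 ± 0.17. The rule also took in Rps19bp1, which encodes a protein that binds Rps19 and is not part of the ribosome. It had 4.57 to 7.53 CPM in WT (median 5.48) and 8.71 to 11.9 in KO (median 9.80), with 0.85 ± 0.17. Rpl10, Rpl14, Rpl4 and Rps19bp1 remained called in all 25 settings.

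**Figure D4:**
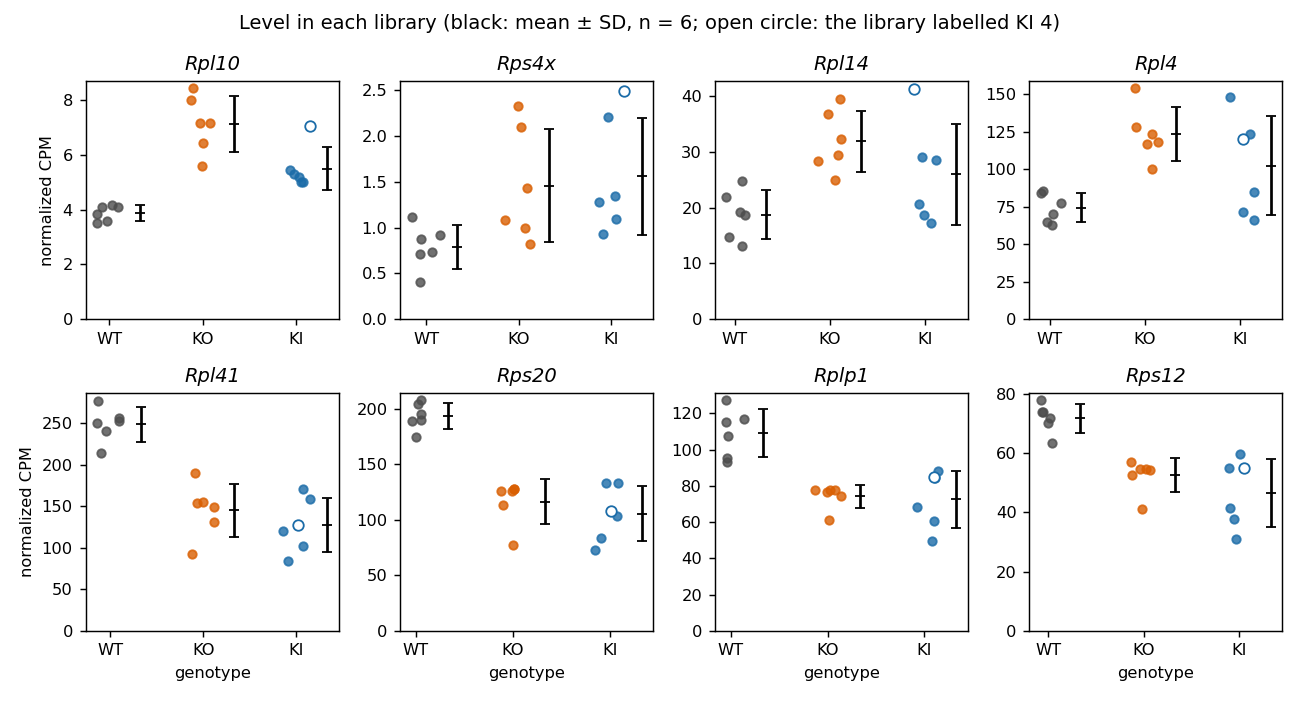
Level of 8 core members in each library, in normalized CPM on linear axes from 0, with the mean and SD of 6 libraries in black and the library labelled KI 4 as an open circle. In the upper row the KO libraries of Rpl10, Rpl14 and Rpl4 lie above WT, and in the lower row both mutant genotypes lie under all WT libraries.

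In KI against WT falls outnumbered rises. Of the 88 members 23 were lower and 6 higher (edgeR, adjusted p under 0.1). Among the 76 core members 21 were lower (27.6%) and 4 higher (5.26%), where 15.4% of all genes tested were lower and 16.1% higher. The median log2 fold change of the core genes was -0.26 against 0.05 for all genes. With total counts the medians were -0.13 and 0.20. The gap between them, 0.32 to 0.33, is nearly fixed under a change of scale, so the scales cannot test it. The core calls were then 4 higher and 8 lower, where 5621 of 21058 genes were higher and 2486 lower. The gap moved with the choice of libraries. The core median minus that of all genes was -0.20 without KI 3, -0.23 without KI 5, -0.073 without KI 3 and 5 and -0.55 without KI 1 and 2. In the small subunit 11 of 31 were lower and 1 higher, and in the large subunit 10 of 45 were lower and 3 higher. No member passed beyond 1 log2 unit in edgeR or DESeq2, and none had an unadjusted p under 0.05 for it, against 1.95% of all genes that passed.

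The number of falls in KI turned on single libraries. Without KI 3 the members called lower were 12, without KI 5 also 12, without KI 6 14, without WT 3 13, without KI 1 35 and without KI 2 36. Over all genes 2928 of 21241 were lower without KI 3, 2616 of 21333 without WT 3 and 3240 of 21330 without KI 2. Leaving out KI 3 and 5 together left 7, where 3050 of 21511 genes tested were lower. Leaving out KI 1 and 2 gave 54, where 3453 of 21678 genes were lower. Without KI 4, whose Ddx25 level goes against its label, 28 were lower and 3 higher, where 3361 of 21257 genes were lower and 3090 higher. Without KI 1 or KI 2 the members called higher were also 3. With close libraries summed and KI 4 left out, 5 were lower and 1 higher, where 1647 of 23982 genes were lower and 1275 higher. Rpl41, Rps20, Rps12 and Rplp1 were among the members called lower in all 26 settings run for this comparison.

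All 6 KI libraries lay under all WT libraries for each of these 4 genes. Rpl41 had 84.2 to 171 CPM in KI (median 124) and a log2 fold change of -0.96 ± 0.17 (adjusted p = 0.0001795, edgeR). Rps20 had 72.8 to 133 CPM (median 106) with -0.87 ± 0.15, and Rps12 31.0 to 59.6 (median 48.2) with -0.62 ± 0.14. Rplp1 had 49.4 to 88.3 CPM (median 76.3) with -0.59 ± 0.14. Rpl37rt, an annotated pseudogene copy of Rpl37, had 1.70 to 3.05 CPM in WT (median 2.45) and 1.06 to 1.82 in KI (median 1.29), with -0.79 ± 0.25. Other falls included Rpl35 (-0.61), Rps26 (-0.33) and Rps6, the substrate of the S6 kinases (-0.45 ± 0.14), and these were called in 20, 11 and 24 of the 26 settings.

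The rises in KI were Rps4x (0.99 ± 0.31), Rps19bp1 (0.79 ± 0.17), Rpl10 (0.51 ± 0.13; adjusted p = 0.007031, edgeR), Rpl14 (0.47 ± 0.19), Rpl4 (0.46 ± 0.17) and Rpl7l1 (0.29 ± 0.12). Rps4x had 0.933 to 2.49 CPM in KI (median 1.31), overlapping WT. Rpl14 had 17.3 to 41.3 CPM (median 24.6) and Rpl4 66.3 to 148 (median 102), and both overlapped WT. Without KI 4 the value was 0.29 for Rpl14 (adjusted p = 0.2644, edgeR) and 0.41 for Rpl4, neither of which is called, while Rpl10 (0.42) and Rps4x (0.80) still were. With close libraries summed as well as KI 4 left out, Rpl10 (0.45; adjusted p = 0.2145, edgeR) and Rps4x (0.83; adjusted p = 0.2447) were not called either. The call of Rpl14 was also lost without WT 1, WT 2, WT 5, KI 1 or KI 2, and that of Rpl4 without WT 4, KI 1 or KI 2. Rpl7l1 was called in 15 of the 26 settings, and its call too was lost without KI 4. Rpl36a was at 1.12 to 4.35 CPM in KI (median 1.96), a log2 fold change of 0.08 ± 0.30, which was -0.20 without KI 4. Rpl39 was at 0.163 to 1.14 CPM (median 0.300), 0.33 ± 0.48, which was -0.23 without KI 4. Of the 710 X-linked genes tested 23.5% were higher in KI and 17.5% lower, with a median of 0.08. Both comparisons use the same WT libraries, so values that both show are not independent of each other.

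**Figure D5:**
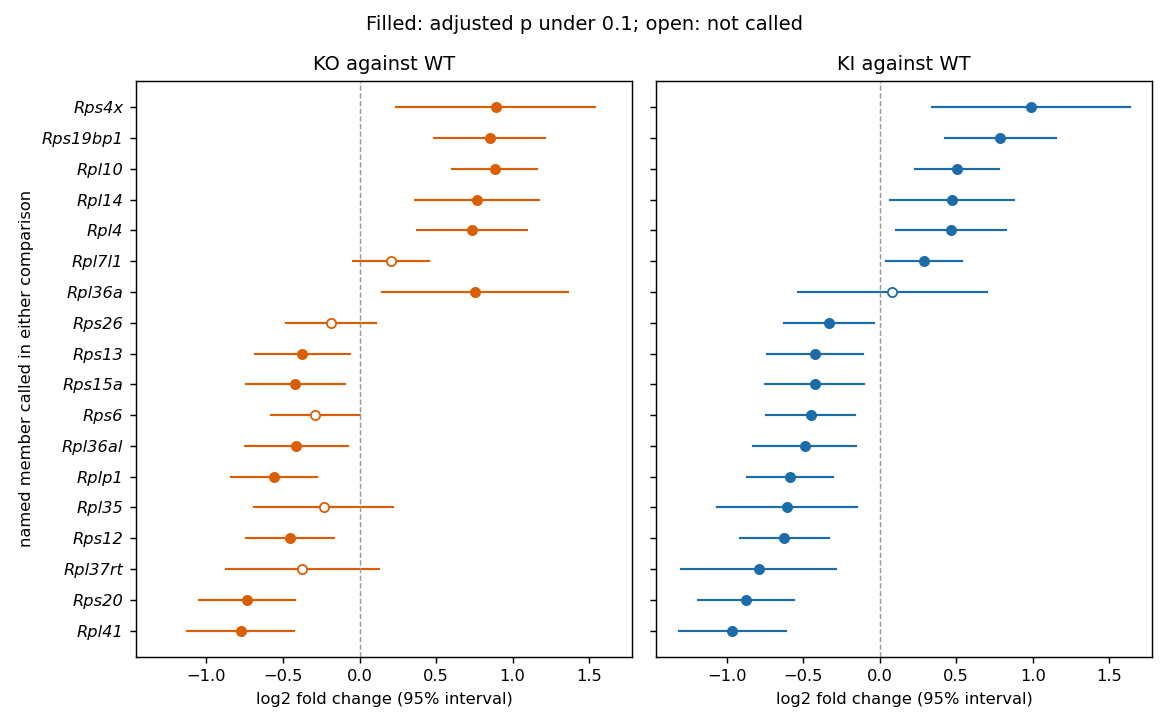
Log2 fold change against WT with its 95% interval for 18 of the members called in either comparison, all named in the text, KO on the left and KI on the right, ordered by the KI value. Filled points passed an adjusted p of 0.1 and open points did not, and all points lie within 1 unit of 0.

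The testis paralogs did not pass the test in either mutant. Rpl10l had 233 to 443 CPM in WT (median 253), against 261 to 332 in KO (median 273) and, in KI, 165 to 325 (median 267). WT 3 and WT 4 were high, at 443 and 420, and the groups overlapped. Its log2 fold change was -0.09 in KO (95% interval -0.47 to 0.29) and -0.26 in KI (-0.63 to 0.12), and without WT 3 the KO value was 0.045. Rpl39l, whose parent protein lies in the exit tunnel, had 59.5 to 126 CPM in WT (median 84.0), against 56.3 to 102 in KO (median 73.0) and, in KI, 52.5 to 101 (median 75.5), with -0.21 in KO (-0.63 to 0.22) and -0.26 in KI (-0.68 to 0.16). Rps4l had 80.2 to 171 CPM in WT (median 104), against 103 to 175 in KO (median 129) and, in KI, 89.3 to 171 (median 126), with 0.16 in KO (-0.27 to 0.60) and 0.12 in KI (-0.32 to 0.55). Changes of 1 log2 unit lie outside these intervals. Rpl36al, by contrast, had 2.24 to 3.82 CPM in WT (median 2.56), against 1.54 to 2.32 in KO (median 2.12) and, in KI, 1.73 to 2.27 (median 1.93), and fell in KI by 0.49 on the log2 scale.

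Among the stalk genes only Rplp1 was called. Rplp0, the base of the stalk, had 405 to 494 CPM in WT (median 433), against 271 to 445 in KO (median 424) and, in KI, 232 to 489 (median 346), with log2 fold changes of -0.16 ± 0.17 and -0.29 ± 0.17. Rplp2, the partner of Rplp1, had 145 to 174 CPM in WT (median 152), against 121 to 170 in KO (median 157) and, in KI, 96.3 to 175 (median 146), with -0.03 ± 0.14 and -0.15 ± 0.14. The difference between Rplp1 and Rplp2 was not tested. Rpsa, the laminin receptor protein of the small subunit, had -0.12 ± 0.15 and -0.30 ± 0.15. Of the remaining paralogs, Rpl22l1, which shares 70.3% of aligned residues with Rpl22, had 21.2 to 28.7 CPM in WT (median 22.3), with -0.29 ± 0.14 in KO and -0.24 ± 0.14 in KI. Rps27l, which differs from Rps27 at 3 of 84 residues, had 9.42 to 14.4 CPM in WT (median 13.005), with -0.12 ± 0.15 and -0.30 ± 0.15. Rps27rt, which has the same coding sequence as Rps27 and 8.92% unique windows, had 0.548 to 1.02 CPM in WT (median 0.612), and its reads cannot be told apart from those of Rps27 with certainty. The parents Rpl3, Rpl7, Rpl22 and Rps27 did not pass the test in either mutant.

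Rpl29, chosen here after its values were seen, varied more between libraries than any other core member in WT, with a coefficient of variation of 69.7%. In WT it was at 12.9 CPM in WT 5 and 13.1 in WT 6, and at 154 to 192 in the other 4. In KI it was at 7.43 CPM in KI 3 and 7.05 in KI 6, at 43.2 in KI 5 and between 66.0 and 90.2 in the other 3, and in KO it ranged from 54.4 to 146. The close pairs of libraries had like levels except KI 3 and 5. Its log2 fold changes, -0.10 ± 0.62 in KO and -1.23 ± 0.63 in KI, did not pass the test. Rpl29 shares 50-base windows with 81 annotated pseudogenes, more copies than Rpl10 with 14, and the part of these copies in its spread was not tested.

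KI against KO, which sets the loss of the phosphorylated form beside the loss of the protein, gave no member past the threshold in edgeR or DESeq2, where 0.0997% of all genes passed. At an unadjusted p under 0.05 there were 2, Rpl10 (-0.38 ± 0.13) and Rpl36a (-0.67 ± 0.29), both lower in KI. No member passed beyond 1 log2 unit and none had an unadjusted p under 0.05 for it, against 0.00475% of all genes that passed. The median log2 difference of the core genes was -0.11, against -0.02 over all genes, and for 84 of the 88 members the 95% interval lay within 1 unit of 0. Without KI 3 and 5 the core median was 0.09, and without KI 1 and 2 it was -0.28. These values keep KI 4, whose Ddx25 level lay in the KO range, among the KI libraries unless stated. Without KI 4 no member was called either, while 60 of 21257 genes were higher and 51 lower. The core median was then -0.18, against -0.03 over all genes.

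The sequence at the start of transcription was read for 57 core genes in RefSeq (GRCm38.p6). A tract of a C followed by at least 6 more pyrimidines was sought on the sense strand, beginning within 20 bases before or after each annotated start. It was found at 34 of 67 annotated starts of core genes (50.7%) and at 6669 of 32851 starts of all genes (20.3%). Some of these tracts begin before the annotated start, such as that of Rpl5 at -20. The windows of 3 members that changed and hold a tract, in capitals, and of 2 that hold none are shown here. The match is of letters only and marks no proven start.
Rpl14: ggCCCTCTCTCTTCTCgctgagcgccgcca
Rps12: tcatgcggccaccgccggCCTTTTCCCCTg
Rps15a: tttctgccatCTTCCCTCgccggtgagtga
Rpl41: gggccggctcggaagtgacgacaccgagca
Rpl10: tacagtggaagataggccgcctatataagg

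These windows lie at chr9:120571507-120571536 (plus strand) for Rpl14, chr10:23787190-23787219 (minus) for Rps12, chr7:118116128-118116157 (minus) for Rps15a, chr10:128549149-128549178 (minus) for Rpl41 and chrX:74270806-74270835 (plus) for Rpl10. Of the 32 tested core genes with a tract, 2 were higher and 2 lower in KO and 2 higher and 11 lower in KI, with medians of -0.18 and -0.30. These are 6.25% higher and 6.25% lower in KO and 6.25% and 34.4% in KI, where all genes had 16.4% and 13.5%, and 16.1% and 15.4%. Of the 24 with an annotated start and no tract, 3 were higher and 2 lower in KO and 2 higher and 4 lower in KI, with medians of -0.12 and -0.24. The difference between these sets was not tested.

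The other genes of the ribosome's supply moved in more than one way. Fau, which encodes a ribosomal protein made as a fusion with a ubiquitin-like protein, fell by 0.43 on the log2 scale in KO (SE 0.15; adjusted p = 0.04373, edgeR) and by 0.60 in KI. Rack1, a scaffold on the small subunit, rose in KO by 0.62 ± 0.21. Of 20 other genes whose transcripts carry the TOP motif, 4 were lower and 1 higher in KO. In KI 5 were lower and 1 higher, and the medians in KO and KI were -0.20 and -0.23. Of all genes tested 13.5% were lower in KO and 15.4% in KI, beside 20% and 25% of these 20 genes, a difference of few calls. Those that fell in both were the elongation factor subunits Eef1d (-1.92 and -2.28) and Eef1g (-1.27 and -1.38) and Tpt1 (-0.75 and -0.86), and Nap1l1, a histone chaperone, rose (0.52 and 0.77).

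Factors that build the ribosome are set beside the share of all genes, of which 16.4% were higher and 13.5% lower in KO and 16.1% and 15.4% in KI. Of 40 assembly factors of the large subunit 13 were higher and 3 lower in KO, and 17 higher and 2 lower in KI, or 32.5% and 42.5% higher, with medians of 0.24 and 0.26, where the medians of all genes were 0.03 and 0.05. Nop16 (0.78 and 0.54), Ftsj3 (0.59 and 0.53) and Gnl2 (0.48 and 0.56) rose, and Rpf2, which brings the 5S particle into the large subunit, fell (-0.97 and -1.27). Of 29 assembly factors of the small subunit 9 were higher (31.0%) and 2 lower in KO, and 6 higher (20.7%, near the share of all genes) and 1 lower in KI, among them Mphosph10 (0.57 and 0.65) and Bysl (0.60 and 0.57). For rRNA transcription 4 of 18 were higher (22.2%, also near it) and 1 lower in each mutant, and Polr1a, the largest subunit of RNA polymerase I, rose (0.42 and 0.47). Of 9 core proteins of small nucleolar particles 3 were higher and 1 lower in KO and 2 higher and 1 lower in KI. Of 12 chaperones and importers of ribosomal proteins 4 were higher and 1 lower in KO and 3 higher and 1 lower in KI, and of 14 regulators of TOP mRNAs 3 were higher and none lower in each, namely Larp4, Larp4b and Eif4ebp2. The mitochondrial ribosomal proteins, 77 tested, had 4 higher and 6 lower in KO and 5 higher and 10 lower in KI, which is 5.19% and 7.79%, and 6.49% and 12.99%, each under the share of all genes. Their medians were -0.0021 and -0.011. Of the 41 tested -ps pseudogenes of ribosomal proteins 4 were higher and 1 lower in KO and 3 higher and 1 lower in KI.

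Markers of other stages moved beside these values. All 10 elongating spermatid markers, such as the protamines, fell in both mutants, with summed levels of 15720 to 21694 CPM in WT, 1837 to 4663 in KO and 2451 to 3761 in KI. Spermatocyte markers had 4 of 10 higher and 2 lower in KO and summed levels of 1957 to 2278 CPM in WT and 2013 to 2390 in KO. Sertoli cell, macrophage, endothelial, peritubular myoid and erythroid markers each summed to between 0.925 and 30.05 CPM in every library. The part of a changed mixture of stages in the differences of the members was not tested.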

How the data were processed

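Total RNA of round spermatids was sequenced in 18 libraries, 6 for each of WT, KO and KI, grouped by their labels. Per the labels and the file header, the authors used cutadapt 3.4 for trimming and STAR 2.7.8a for alignment to GRCm38, and counted read pairs by strand on GENCODE M18 genes with featureCounts (Subread 2.0.1), without removing duplicates or counting reads that map to several places. The deposited values are raw counts, used unchanged, and 0 columns were unused.

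Genes were filtered with filterByExpr (21058 kept) and scaled with TMM in edgeR 4.0.16 (R 4.3.3). All libraries entered 1 quasi-likelihood fit with genotype as the term, with glmQLFTest for any change and glmTreat for a change beyond 1 log2 unit, both at a Benjamini-Hochberg adjusted p of 0.1. The fit was tested on simulated data. The simulated libraries were independent, with a cap on their spread, so the test did not cover close pairs of libraries or the wider spread in KI. The members and the gene lists were chosen with earlier results of these data known. Named members are the paralogs and relatives with their parents, the X-linked and stalk genes, the 5 largest rises and falls past the threshold in each comparison with WT, and the 3 highest and 3 lowest in WT. Some genes that meet this rule are not reported here. Rps13, Rps6, Rps26, Rpl35, Rpl24 and Rpl29 were named after their values were seen. The floor was 3 counts, or 0.112 to 0.160 CPM, and covers counting error only. Depth was 18766971 to 26776555 counts per library. Alternatives covered DESeq2 1.42.0, other scaling and filters, a replicate block, each library left out and, chosen after seeing the data, close pairs left out and other lengths.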

Additional observations from a re-analysis of the deposited data

Results flagged for a closer look

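Of 90 groups of 6 libraries tested over the named members and Ddx25, 8 held a library whose gap to the others passed Dixon's critical value, and chance flags about 1 in 20. Of these, 3 were in the library labelled KI 4, whose Rpl10 was at 7.06 CPM against 5.01 to 5.46 in the other KI libraries, Rpl39 at 1.14 CPM against 0.163 to 0.485, and Ddx25 at 56.8 CPM against 0.0456 to 0.518. KO 3 stood under the other KO libraries for 4 members. Its Rps20 was at 77.5 CPM against 113 to 128, Rplp1 at 61.2 against 74.5 to 77.8, Rps12 at 41.1 against 52.5 to 57.1, and Rpl37rt at 0.664 against 1.74 to 2.38. In KO 4, Rpl36al was at 1.54 CPM against 2.07 to 2.32.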

How the results depend on the processing

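Members called lower in KO numbered 4 at an adjusted p of 0.05, with total counts, with close libraries summed and KI 4 left out, without WT 3 and 4 or without KO 4 and 5, 13 with only the genotypes compared and 14 without WT 1 and 2. With a single library left out they ranged from 4 to 8, with 5 without WT 3 or WT 4 and 4 without KO 4, and those higher from 4 to 7. In KI, members lower numbered 15 at 0.05, 9 with total counts, 12 without the filter, 5 with close libraries summed, 10 without WT 3 and 4, 14 without WT 5 and 6, 54 without KI 1 and 2 and 7 without KI 3 and 5, and ranged from 12 to 36 over single libraries. Members higher in KI numbered 3 at 0.05, 1 with close libraries summed and 3 without KI 1 and 2, and ranged from 3 to 6 over single libraries. All genes lower in KI numbered 2904 of 43982 without the filter and 2415 of 21700 without WT 3 and 4. In KO they numbered 1827 of 23982 with close libraries summed and 2619 of 21604 without WT 1 and 2. The replicate block gave 6 higher and 8 lower in KO and 5 higher and 25 lower in KI, and lost 1 named call, Rpl14 in KI (adjusted p = 0.1076, edgeR). Only 7 of 18 pairs of libraries with the same number correlated above 0.1 in their deviations from the group mean (-0.44 to 0.48), so the numbers were not taken as a pairing. KI against KO gave 0 members, and no comparison gave one beyond 1 log2 unit, in each setting run.

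Among the named members, signs turned only in comparisons without a call. Rpl10l in KO was 0.039 with total counts and 0.24 without WT 3 and 4, with -0.16 to 0.045 over single libraries, and 0.12 in KI without WT 3 and 4. Rpl39l without WT 3 and 4 was 0.10 in both. Rpl39 in KI was -0.26 with close libraries summed and -0.23 to 0.61 over single libraries. Rpl36a in KI was -0.20 with close libraries summed, -0.091 without WT 1 and 2 and -0.0084 without KI 1 and 2, with -0.20 to 0.23 over single libraries. Rps4l was -0.061 in KO and -0.054 in KI without WT 1 and 2, and -0.011 in KI without KI 1 and 2, but 0.51 (adjusted p = 0.06683, edgeR) in KO and 0.52 (adjusted p = 0.059) in KI without WT 3 and 4. The cause was not tested.

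Of the WT ratios, Rpl10l to Rpl10 was 71.9 with the longest transcript, 66.1 with the principal transcript and 10.4 with unique windows. Rps4l to Rps4x was 155.5 with either transcript and 50.8 with unique windows. Rpl36al to Rpl36a was 0.798, 0.474 and 0.0856. Genes near the floor, such as Rpl39 with 3 counts in 1 library, limit what a ratio can show.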
